A study of Mus musculus with 8 samples.

Results

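The nuclear genes of the oxidative phosphorylation (OXPHOS) machinery were read from the RNA-seq table of mouse fetal hearts whose sample titles give E13.5 (E for embryonic day). Members were the gene symbols that begin with Nduf, Uqcr, Atp5, Cox4, Cox5, Cox6, Cox7 or Cox8, together with Sdha, Sdhb, Sdhc, Sdhd, Cyc1 and Cycs. The rule took 93 of the 26590 symbols in the table, and 91 of them were among the 14657 symbols with a genotype mean above 1 RPKM (reads per kilobase of transcript, scaled to the mapped reads of a library) in at least 1 genotype. Cox7b2 (0.07 RPKM in the controls and 0.20 RPKM in the mutants) and Cox8c (listed at 0 in both genotypes) were not tested. Of the 93 symbols, 86 name subunits of complexes I to V or cytochrome c, and 7 name proteins that are no subunits. Uqcr is an older symbol of Uqcr11, so that the 93 symbols stand for 92 genes.

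The study compared hearts of Dio3-/- fetuses (KO, 4 hearts) with hearts of Dio3+/+ fetuses (WT, 4 hearts), all on a C57BL/6J background. Each RNA sample came from an individual fetus. Dio3 encodes the type 3 deiodinase, the enzyme that inactivates thyroid hormones, and it is lacking in every tissue of the KO fetus, so the heart is not the only organ affected. The sample titles give E13.5 for all 8 hearts, while the age field gives E18.5 for 2 of them, KO hearts 3 and 4, and the study's methods name a day between these for the hearts that were sequenced. The table holds a mean and a coefficient of variation (CV, the SD divided by the mean) for each genotype and no value for single hearts, so those 2 hearts cannot be left out and overlap between single hearts cannot be read. The level of each gene is the authors' mean of its row with the highest level, with the CV over 4 hearts beside it. Dio3 itself was listed at 0.35 RPKM in WT and 0.13 RPKM in KO, too low to check the genotype labels. Klf9 and Hr, both induced by the active thyroid hormone T3, were at 1.86 and 0.33 RPKM in WT and at 8.48 and 1.23 RPKM in KO, and both passed the test below (limma adjusted P = 5.74e-06 and 0.00561). Hr was above 1 RPKM only in KO, the genotype where it is high, so its test is no independent check of the labels.

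Oxidative phosphorylation takes electrons from NADH through complex I and from succinate through complex II, and passes them by way of complex III and cytochrome c to oxygen at complex IV. The protons pumped out on the way drive ATP synthase, complex V. Most subunits are encoded in the nucleus and imported, a few are encoded in mitochondrial DNA, and the heart is among the tissues richest in these complexes. Nuclear respiratory factor 1 (NRF1), GABP, YY1 and the estrogen-related receptors (ERR) are known regulators of many of these genes, and thyroid hormone receptors bind paired AGGTCA half-sites spaced by 4 bases (DR4).

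Promoter windows from RefSeq (build GRCm38.p6, from 250 bases before to 50 bases after a transcription start) were matched for 69 of the 85 subunit genes, in 74 windows. The windows of the 3 subunit genes with the lowest adjusted P values, Cycs, Ndufs5 and Atp5f1, are printed 5′ to 3′ on the strand of the gene, with matches to the searched motifs in capitals. Cycs encodes cytochrome c and lies on the minus strand at chr6:50566520-50566819, with a match to the NRF1 core in capitals. Ndufs5 encodes an accessory subunit of complex I and lies on the minus strand at chr4:123718137-123718436, with a reverse-strand match to the ERR motif first and a match to the NRF1 core second. Atp5f1 (Atp5pb in RefSeq) encodes the b subunit of the ATP synthase stalk and lies on the minus strand at chr3:105959214-105959513, with a reverse-strand match to the YY1 motif.
Cycs: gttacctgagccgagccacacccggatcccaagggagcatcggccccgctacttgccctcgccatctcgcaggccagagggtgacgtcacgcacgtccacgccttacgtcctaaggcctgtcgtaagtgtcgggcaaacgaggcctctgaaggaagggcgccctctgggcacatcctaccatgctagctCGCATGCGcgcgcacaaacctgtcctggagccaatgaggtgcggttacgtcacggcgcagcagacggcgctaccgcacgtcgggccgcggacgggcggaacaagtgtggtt
Ndufs5: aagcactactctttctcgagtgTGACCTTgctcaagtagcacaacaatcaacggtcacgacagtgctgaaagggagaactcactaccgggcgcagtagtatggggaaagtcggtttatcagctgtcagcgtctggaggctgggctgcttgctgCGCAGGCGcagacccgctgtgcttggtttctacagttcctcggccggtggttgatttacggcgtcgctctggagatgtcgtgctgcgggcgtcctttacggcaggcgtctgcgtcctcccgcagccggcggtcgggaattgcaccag
Atp5f1: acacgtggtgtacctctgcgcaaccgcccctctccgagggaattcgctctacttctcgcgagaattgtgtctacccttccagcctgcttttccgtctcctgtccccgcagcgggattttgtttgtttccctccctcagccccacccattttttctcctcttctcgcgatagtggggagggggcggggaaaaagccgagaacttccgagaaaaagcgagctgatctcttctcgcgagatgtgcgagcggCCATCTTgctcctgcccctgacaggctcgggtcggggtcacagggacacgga

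The NRF1 core (CGCANGCG, searched on both strands as were all motifs) was present in 29 of the 74 subunit windows (39.2%), compared with 8.21% of all 32851 windows and 16.4% of the 11467 windows of genes tested. The GABP motif (CCGGAAG) was present in 16 windows (21.6%, against 8.86% of all and 16.6% of tested genes). The YY1 motif (AAGATGG) was in 11 windows (14.9%, against 6.34% and 6.71%), and the ERR motif (AAGGTCA, which contains the AGGTCA half-site of DR4) was in 8 windows (10.8%, against 4.72% and 3.1%). No subunit window held a DR4, and neither did any of the 11467 windows of tested genes, while 5 of all windows did (0.0152%). The motif is so rare that its absence from 74 windows says nothing about these genes. These are matches of letters and no measured binding. Of the other subunit genes that passed the test, Ndufb2 had a match to the ERR motif and Ndufs4 a match to the YY1 motif. The tissue isoform genes Cox6b2, Cox7a1, Cox7b2 and Cox8b had no match to any of these motifs. This was not particular to them: their partners Cox7a2 and Cox7b had no match either, while Cox6b1 and Cox8a held the GABP motif. Subunit genes with and without a match differed little in their change between genotypes: the median log2 fold change was 0.25 in the 26 genes with an NRF1 core and 0.23 in the 42 without, and 0.25 in the 45 with any of the 4 shorter motifs and 0.24 in the 23 with none.

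The mutant hearts had slightly higher levels of nearly the whole set. On the scale of log2(RPKM + 0.5), the KO mean was above the WT mean in 88 of the 91 OXPHOS genes (96.7%), whereas the same held for 63.3% of all genes tested. The median log2 fold change was 0.24 (quartiles 0.18 and 0.29), compared with 0.04 over all genes tested (quartiles -0.04 and 0.12), and 82 of the 91 genes had a log2 fold change between 0.1 and 0.4. Abundant genes as a whole had a smaller median, 0.05 over the 2512 genes with a mean above 30 RPKM and 0.07 over the 654 genes above 100 RPKM. The summed level of the 91 genes was 13034 RPKM in WT and 15322 RPKM in KO, 17.6% higher.

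Few of the single genes passed the test. By limma's moderated test from the deposited means and CVs, with Benjamini-Hochberg adjustment over the 32703 rows tested, 6 of the 91 OXPHOS genes (6.59%) had an adjusted P value under 0.05 and were higher in KO, compared with 1.91% of all genes. None was lower with an adjusted P value under 0.05, compared with 0.382% of all genes. The 6 calls were not stable. Raising every CV by 0.005, the largest rounding error of the table, left 1 (1.07% of all genes were then called higher), and lowering was not run. Centring each gene on the median log2 ratio left 1 (0.88% of all genes). The count was 2 without the mean-variance trend and 1 without a filter on low values. It was 13 of 88 with a mean above 5 RPKM (3.11% of all genes), and 6 with other pseudocounts or 1 row per gene. An unequal-variance test called 0. At an unadjusted P value under 0.05 that test gave 62 higher in KO (13.7% of all genes were) and 1 lower. Cycs passed in 9 of 10 settings, all but the unequal-variance test, and Ndufs5, Ndufs4, Ndufb2, Atp5f1 and Ndufaf4 in 5 or 6. At an unadjusted P value under 0.05, limma gave 71 OXPHOS genes that were higher (78.0%, against 15.2% of all genes) and 1 that was lower (4.46% of all genes were). The KO mean was above the WT mean by more than the sum of both SDs in 56 of the 91 genes (61.5%), compared with 12.8% of all genes. Genes are not independent of each other, and these shares describe the set.

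**Figure D1:**
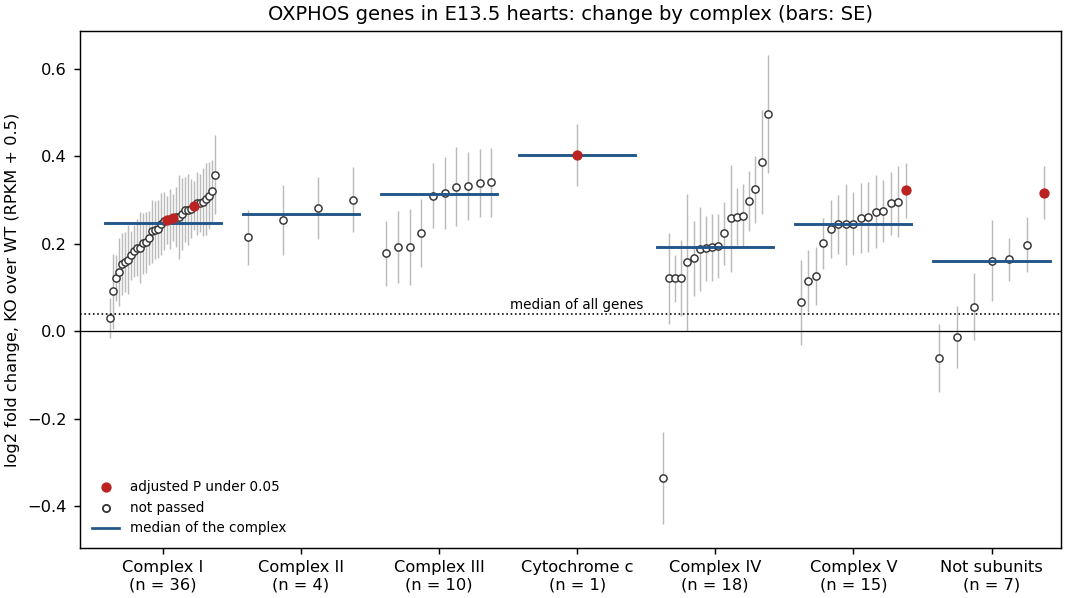
The vertical axis is the log2 fold change of KO over WT (RPKM + 0.5) with its standard error, and each point is 1 of the 91 tested OXPHOS genes, ordered by value within its complex. Almost all points lie above the dotted median of all genes (0.04), the 6 filled points passed the adjusted P value, and Cox6b2 of complex IV (-0.34) lies apart below.

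Complex I, the NADH dehydrogenase, was higher in KO in all 36 of its genes. The median log2 fold change was 0.25, with 31 genes at an unadjusted limma P value under 0.05 and 3 past the adjusted threshold. Levels in WT lay between 22.14 and 226.94 RPKM, the highest being that of Ndufa12, an accessory subunit, which was at 226.94 RPKM (CV 0.11) in WT and 254.09 RPKM (CV 0.05) in KO. The 7 core subunits, which carry out the electron transfer, had a median log2 fold change of 0.23, and the 29 accessory subunits, which surround them, had 0.25.

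The 3 genes of complex I past the adjusted threshold were all accessory subunits, as are 29 of its 36 genes. Ndufs5 was at 61.09 RPKM (CV 0.07) in WT and 74.67 RPKM (CV 0.03) in KO, a log2 fold change of 0.29 (SE 0.06, limma adjusted P = 0.0366). Ndufs4, whose loss in humans is a cause of Leigh syndrome, was at 32.40 RPKM (CV 0.06) in WT and 38.88 RPKM (CV 0.04) in KO, with a log2 fold change of 0.26 (SE 0.05, limma adjusted P = 0.0461). Ndufb2 was at 48.69 RPKM (CV 0.06) in WT and 58.16 RPKM (CV 0.04) in KO, with a log2 fold change of 0.25 (SE 0.05, limma adjusted P = 0.0483). All 3 were among the 24 of 36 genes of the complex with means that lay apart by more than the sum of both SDs. None of their CVs was above 0.07, and the test was itself calculated from these means and CVs.

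Ndufs6, an accessory subunit, had the highest log2 fold change of the complex, 0.36 (SE 0.09), between 92.61 RPKM (CV 0.12) in WT and 118.86 RPKM (CV 0.08) in KO, and did not pass the limma test (adjusted P = 0.0702). Ndufs1, the core subunit with the most iron-sulfur clusters, was at 99.43 RPKM (CV 0.10) in WT and 121.84 RPKM (CV 0.05) in KO (limma adjusted P = 0.0703), and 1 of its other rows, with a lower level, had an adjusted P value of 0.0488. Ndufa7, another accessory subunit, had the smallest log2 fold change of the complex, 0.03, at 70.32 RPKM (CV 0.04) in WT and 71.83 RPKM (CV 0.03) in KO. Its 95% confidence interval ran from -0.07 to 0.13, so that a rise of the size of the complex median lay outside it.

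Complex II, succinate dehydrogenase, which also serves the TCA cycle, was higher in KO in all 4 genes, and all 4 were at an unadjusted limma P value under 0.05 but none past the adjusted threshold. Sdhb, the iron-sulfur subunit, was the most abundant, at 151.78 RPKM (CV 0.09) in WT and 187.13 RPKM (CV 0.07) in KO. Sdha, the flavoprotein that oxidizes succinate, was at 113.66 RPKM (CV 0.09) in WT and 138.26 RPKM (CV 0.06) in KO. The membrane anchors Sdhc and Sdhd were at 121.62 and 94.01 RPKM in WT and at 141.25 and 112.18 RPKM in KO. The 4 log2 fold changes lay between 0.215 and 0.301, with limma adjusted P values between 0.0696 and 0.126. In each of the 4 genes the means lay apart by more than the sum of both SDs.

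Complex III, the cytochrome bc1 complex, had the highest median log2 fold change of the 5 complexes, 0.31, and all 10 of its symbols (9 genes) were higher in KO. Of these, 9 had an unadjusted limma P value under 0.05 and none passed the adjusted threshold (0.0582 to 0.274). Uqcrfs1, the Rieske iron-sulfur protein, was at 104.11 RPKM (CV 0.11) in WT and 131.92 RPKM (CV 0.05) in KO, a log2 fold change of 0.34 (SE 0.08, limma adjusted P = 0.0582). Cyc1, which encodes cytochrome c1, was at 146.84 RPKM (CV 0.09) in WT and 182.15 RPKM (CV 0.07) in KO (log2 fold change 0.31, SE 0.075, limma adjusted P = 0.0647). Uqcrb, which encodes a small subunit, was the most abundant, at 312.16 RPKM (CV 0.10) in WT and 353.25 RPKM (CV 0.05) in KO, and had the smallest log2 fold change of the complex, 0.18. No difference between the medians of the complexes was tested.

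Cycs, which encodes the mobile electron carrier cytochrome c, had the lowest adjusted P value of the set. It was at 117.09 RPKM (CV 0.10) in WT and 154.84 RPKM (CV 0.04) in KO, 32.2% higher, with a log2 fold change of 0.40 (SE 0.07, 95% confidence interval 0.24 to 0.56, limma adjusted P = 0.0251). Its means lay apart by more than the sum of both SDs. Only uniquely mapping reads were kept, and the Cycs transcript has near-identical copies elsewhere: 26.1% of its 75-base windows occur in transcripts of other genes, as do 24.1% of those of Ndufs5 and 15.4% of those of Atp5f1, so their levels are less certain. Those of Ndufs4 had no such copy. Over the 54 tested subunit symbols with no shared window the median log2 fold change was 0.25, and over the 30 with any it was 0.24.

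Complex IV, cytochrome c oxidase, was the most mixed of the complexes. The median log2 fold change of its 18 tested genes was 0.19, with 17 higher in KO, 11 of them at an unadjusted limma P value under 0.05, and none past the adjusted threshold. Its levels spanned 2.27 to 667.63 RPKM in WT, with Cox8a, a small membrane subunit, the most abundant at 667.63 RPKM (CV 0.13) in WT and 760.13 RPKM (CV 0.07) in KO. This complex holds tissue isoforms of several subunits, and because RPKM is per length their levels can be set side by side.

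**Figure D2:**
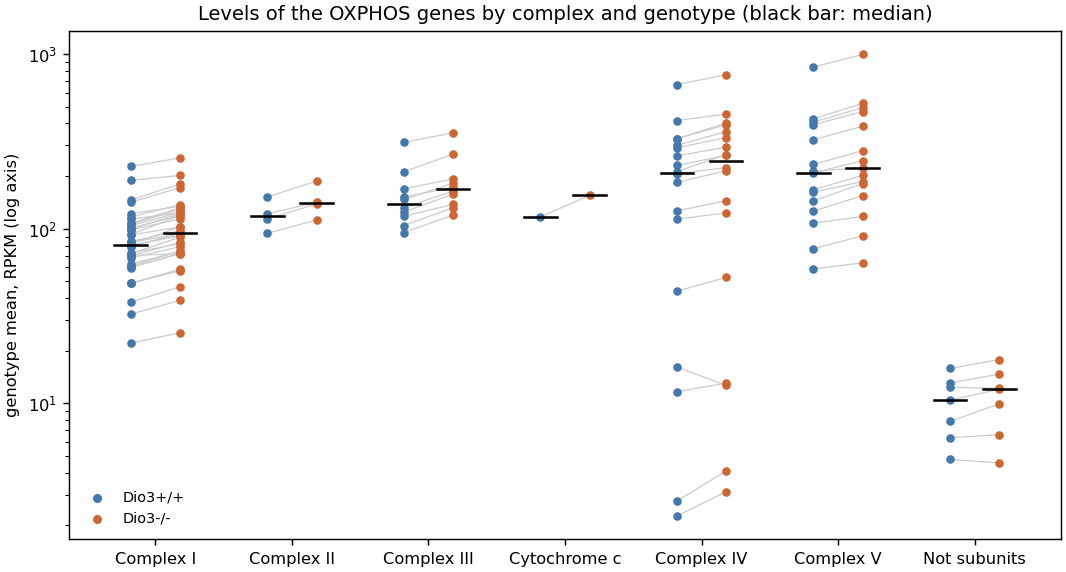
The vertical axis is the genotype mean in RPKM on a log axis, each line joins the WT and KO means of 1 tested OXPHOS gene, and black bars are medians of the complex. The lines run upward in nearly all genes at all levels, and the low points of complex IV are the tissue isoforms.

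The shares of the 3 muscle isoforms of complex IV differed between genotypes by less than their spread. The heart and skeletal muscle isoform Cox6a2 made up 47.2% of the summed level of Cox6a1 and Cox6a2 in WT (SD 4.49 percentage points, propagated from the CVs as if the genes varied independently) and 46.0% in KO (SD 2.48). Cox7a1, the muscle partner of Cox7a2, made up 25.8% (SD 3.35) in WT and 26.7% (SD 3.06) in KO. Cox8b, the muscle partner of Cox8a, made up 1.72% (SD 0.402) and 1.69% (SD 0.336). Each of these differences was smaller than either SD. The muscle isoforms themselves were at 205.73 RPKM in WT and 223.76 RPKM in KO (Cox6a2), 43.89 and 52.57 RPKM (Cox7a1) and 11.66 and 13.06 RPKM (Cox8b), with limma adjusted P values of 0.587, 0.293 and 0.645. Cox7a2l, which has a part in assembling supercomplexes, was at 113.16 RPKM in WT and 123.12 RPKM in KO, and Cox7b was at 183.72 and 214.60 RPKM.

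Minor isoforms stood at both ends of the distribution. Ndufa4l2, a hypoxia-induced paralog of the complex IV subunit Ndufa4, had the highest log2 fold change of the 91 genes, 0.50 (SE 0.14), at 2.76 RPKM (CV 0.18) in WT and 4.10 RPKM (CV 0.17) in KO, and did not pass the limma test (adjusted P = 0.0861). Its share of the summed Ndufa4 and Ndufa4l2 level was 1.05% (SD 0.224) in WT and 1.38% (SD 0.245) in KO. Cox4i2, the isoform of Cox4i1 that is known from lung and from hypoxic cells, was at 2.27 RPKM (CV 0.14) in WT and 3.12 RPKM (CV 0.16) in KO, with a log2 fold change of 0.39 (SE 0.12, limma adjusted P = 0.119). It made up 0.752% (SD 0.117) of the pair in WT and 0.861% (SD 0.146) in KO. Cox4i1 itself was at 299.54 RPKM (CV 0.07) in WT and 359.39 RPKM (CV 0.06) in KO (limma adjusted P = 0.0709).

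Cox6b2, an isoform best known from testis, went the other way. It was at 16.14 RPKM (CV 0.13) in WT and 12.68 RPKM (CV 0.12) in KO, a log2 fold change of -0.34 (SE 0.105, 95% confidence interval -0.57 to -0.10), and it was the only OXPHOS gene lower at an unadjusted limma P value under 0.05 (adjusted P = 0.124). All 3 of its rows gave a log2 fold change between -0.35 and -0.34. Its partner Cox6b1 was at 415.65 RPKM (CV 0.12) in WT and 452.48 RPKM (CV 0.06) in KO. The share of Cox6b2 in the pair was 3.74% (SD 0.637) in WT and 2.73% (SD 0.356) in KO by the highest row of each gene. With all rows summed it was 9.67% and 7.14%, but that sum holds 3 transcript rows of like level for Cox6b2 and 1 for Cox6b1. Reads shared by rows would be counted more than once in it. No test of the difference between the partners was made.

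**Figure D3:**
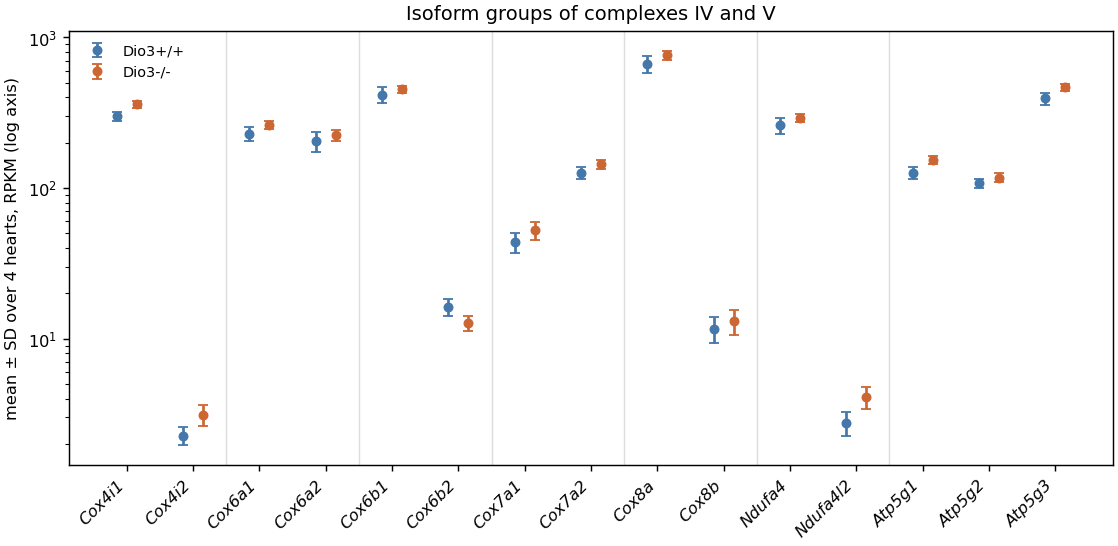
The vertical axis is the authors' mean in RPKM on a log axis with an SD made from the deposited CV over 4 hearts, for isoform groups separated by vertical lines. In each group WT and KO stand at like heights, KO slightly above WT, except for Cox6b2, where KO (12.68 RPKM) is below WT (16.14 RPKM).

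Complex V, ATP synthase, was higher in KO in all 15 genes, with a median log2 fold change of 0.25 and 12 genes at an unadjusted limma P value under 0.05. Atp5f1 was at 144.62 RPKM (CV 0.08) in WT and 180.88 RPKM (CV 0.04) in KO, a log2 fold change of 0.32 (SE 0.06), and was the only gene of the complex that passed the limma test (adjusted P = 0.0370). All 3 of its rows passed. Atp5b, which encodes the catalytic beta subunit, was the most abundant OXPHOS gene, at 839.92 RPKM (CV 0.12) in WT and 994.51 RPKM (CV 0.07) in KO, with a log2 fold change of 0.24 (limma adjusted P = 0.195). The 5 genes of the catalytic F1 head had a median log2 fold change of 0.24 and the 10 others 0.25.

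Atp5g1, Atp5g2 and Atp5g3 encode the same mature c subunit of the rotor ring. Atp5g3 was the most abundant, at 394.01 RPKM (CV 0.09) in WT and 467.31 RPKM (CV 0.05) in KO. Atp5g1 was at 126.07 RPKM (CV 0.09) and 154.45 RPKM (CV 0.06), and Atp5g2 was at 107.56 RPKM (CV 0.07) and 117.44 RPKM (CV 0.07). Their shares of the sum were 62.8%, 20.1% and 17.1% in WT and 63.2%, 20.9% and 15.9% in KO, differences no larger than the propagated SDs of the WT shares. For Atp5g2 the difference was larger than the SD of its KO share (1.08 percentage points). With all rows of each gene summed, the shares of Atp5g3, Atp5g1 and Atp5g2 were 52.3%, 33.4% and 14.3% in WT and 52.4%, 34.5% and 13.2% in KO. Here Atp5g1 is counted by 2 transcript rows of like level (126.07 and 125.29 RPKM in WT) and the others by 1 row each.

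The 7 symbols that the name rule took but that are no subunits had a median log2 fold change of 0.16, with 5 of them higher and 2 lower in KO. Ndufaf4, an assembly factor of complex I, rose from 7.88 RPKM (CV 0.05) in WT to 9.94 RPKM (CV 0.06) in KO, a log2 fold change of 0.32 (SE 0.06, limma adjusted P = 0.0330). Ndufaf2, another assembly factor of the complex, was at 12.33 and 12.21 RPKM. Atp5s, which encodes factor B, was at 4.78 and 4.56 RPKM, and Cox4nb, a symbol of the membrane protein complex gene Emc8, at 6.35 and 6.62 RPKM. These 3 were among the 5 lowest log2 fold changes of the set.

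The median CV of the OXPHOS genes was 0.09 in WT and 0.06 in KO, the same medians as over all genes tested, and the highest CV of a tested member in KO was 0.19. The WT CV exceeded the KO CV in 73 of the 91 genes (80.2%) compared with 65.4% of all genes. Where a gene had several rows they ran together: of 30 genes with at least 2 tested rows, 29 had log2 fold changes of 1 sign in every row, and 122 of the 130 tested rows were higher in KO. The rows of a gene are transcripts that can share reads, so they are not independent of each other.

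Neighbouring parts of the mitochondrial program were read from fixed lists. The 3 mtDNA-encoded subunits in the table had log2 fold changes close to those of the nuclear genes: 0.24 for mt-Nd4 of complex I (6386.35 RPKM in WT and 7564.56 RPKM in KO), 0.22 for Cytb of complex III (5192.68 and 6067.93 RPKM) and 0.22 for the row listed as Cox2, a subunit of complex IV (9633.79 and 11197.64 RPKM). None of them passed the limma test (adjusted P = 0.204, 0.265 and 0.286). The 14 TCA cycle genes, which feed the chain, were all higher, with a median of 0.25, and 2 of them passed, both subunits of succinyl-CoA ligase: Sucla2 (47.12 and 57.66 RPKM, limma adjusted P = 0.0461) and Suclg1 (69.40 and 84.94 RPKM, limma adjusted P = 0.0235). All 13 genes of a list of mitochondrial mass, which shares Cs with the TCA list, were higher as well, with a median of 0.20, and 2 passed: the import channel gene Timm23 (85.80 and 100.49 RPKM, limma adjusted P = 0.0408) and the mitochondrial chaperone Hspa9 (142.36 and 172.39 RPKM, limma adjusted P = 0.0486).

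Assembly factors outside the name rule had lower medians than the subunits: 0.20 over 7 genes for complex I, 0.10 over 3 for complex II, 0.15 over 4 for complex III, 0.095 over 12 for complex IV and 0.13 over 3 for complex V, with none of these past the adjusted threshold. The 5 tested genes associated with the complexes but outside the name rule had a median of 0.16, with 4 higher and 1 lower, and 1 passed. That gene, Higd1a, a hypoxia-induced inner membrane protein, had the highest change of the 5. It rose from 14.71 to 20.31 RPKM (log2 fold change 0.45, SE 0.08, limma adjusted P = 0.0222). The 21 regulators of mitochondrial biogenesis had a median of 0.07, and 1 passed. Ppargc1b, a coactivator of ERR and NRF1, rose from 8.46 RPKM (CV 0.14) in WT to 12.17 RPKM (CV 0.06) in KO, a log2 fold change of 0.50 (SE 0.09, limma adjusted P = 0.0301). Its paralog Ppargc1a was at 20.05 and 21.67 RPKM (log2 fold change 0.11, 95% confidence interval -0.10 to 0.32). Of the factors whose motifs were searched, Nrf1 gave a log2 fold change of 0.08, Yy1 0.01, Gabpa 0.06 and its partners Gabpb1 0.002 and Gabpb2 0.03, Esrra 0.27, Esrrb 0.07 and Esrrg -0.01, and the mtDNA transcription factor Tfam gave 0.11, with limma adjusted P values between 0.286 and 0.993.

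Markers of the cell types went in different directions between genotypes, and only the cardiomyocyte list had a median like that of the OXPHOS genes. The 12 cardiomyocyte markers, from 24.20 to 4778.41 RPKM in WT, were all higher in KO with a median log2 fold change of 0.24, as large as that of the OXPHOS genes, and their summed level was 14146.4 RPKM in WT and 16610.9 RPKM in KO. Of these, Ryr2, the calcium release channel, passed the limma test (24.20 and 36.62 RPKM, adjusted P = 0.0231). The 8 tested erythroid markers were all lower, with a median of -1.49, and Hbb-bh1, an embryonic globin, passed the limma test (317.82 and 110.93 RPKM, adjusted P = 0.0468). Their summed level was 97861.0 RPKM in WT and 34002.9 RPKM in KO, 15.6% and 5.83% of the summed RPKM of all genes. The 8 fibroblast markers had a median of -0.24 with 5 lower and 3 higher and a median CV of 0.405 in WT, their sums being 856.6 and 756.0 RPKM. The 7 endothelial markers were all higher with a median of 0.11 and sums of 253.9 and 273.5 RPKM. The 8 hepatocyte markers were all higher with a median of 1.58, sums of 22.7 and 119.3 RPKM and a median CV of 1.105 in KO, and none passed. Of these, Ttr, Ahsg and Fgb were above 1 RPKM only in KO, and so were tested only through the genotype where they are high. No marker of these lists that was tested was at 0.

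The part of these shifts in the OXPHOS result was not tested. In bulk tissue, fewer cells of a type and less RNA per cell cannot be told apart. The nuclear subunits and cytochrome c made up 2.06% of the summed RPKM in WT and 2.61% in KO, and without the erythroid markers 2.44% and 2.77%. When each genotype was scaled to its summed RPKM without those markers, the median log2 fold change of the OXPHOS genes was 0.19, with 87 of 91 above 0, while the median over all genes was -0.01 with 46.1% above 0.

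**Figure D4:**
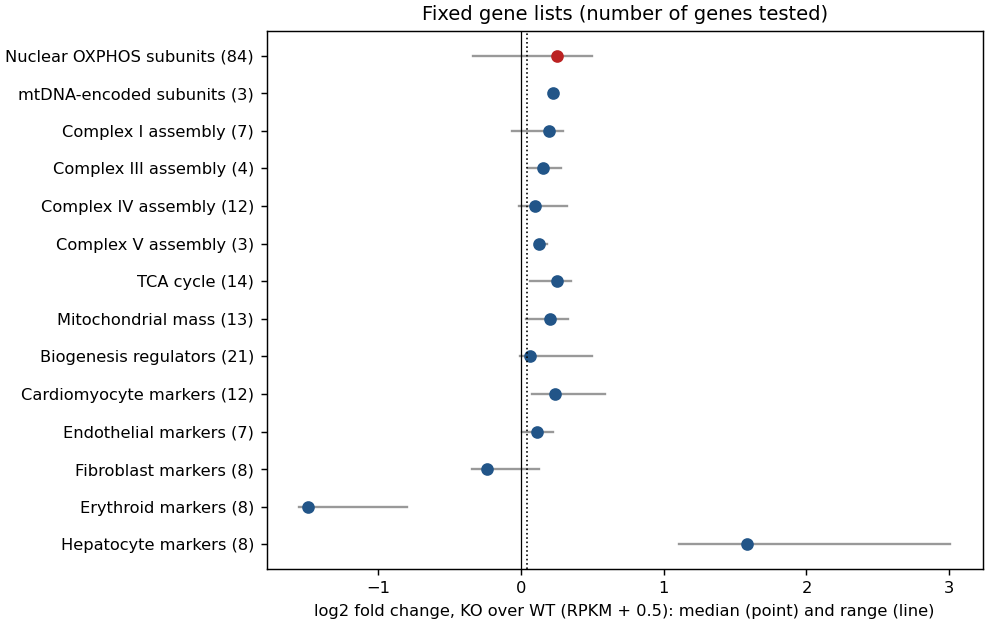
The horizontal axis is the log2 fold change of KO over WT (RPKM + 0.5), with the median of each list as a point and its range as a line, the median of all genes dotted, and the number of genes tested in brackets. The nuclear subunits (0.25), the TCA cycle (0.25) and the cardiomyocyte markers (0.24) share a like median, and the erythroid (-1.49) and hepatocyte (1.58) markers lie far to either side.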

How the data were processed

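The authors isolated total RNA from single hearts, removed rRNA, sequenced single-end libraries and aligned them with Novoalign (version 2.08, with FastQC, per the submitters' processing notes), kept reads that mapped uniquely and scaled the samples linearly to the smallest. The build is not given in the sources used here. The deposited table holds, for each of 51414 transcript rows, genotype means, read as RPKM because the authors' methods filter in that unit, and CVs, a ratio of SD to mean. Its fold ratio and q-value columns, the authors' own comparison, were not used. The table holds no read totals. The study's methods give aligned reads as a range over samples, and mapped reads as an average that lies below that range. Neither is given for single samples, so the depth behind each single value is unknown.

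The design had foreseen values for single hearts. Instead, the comparison of 4 WT with 4 KO hearts was calculated from the summaries: log2(RPKM + 0.5) of each mean, an SD from the CV by the delta method, and moderated variances from limma 3.58.1 under R 4.3.3 (mean-variance trend, 6 residual and 3.52 prior degrees of freedom) over the 32703 rows above 1 RPKM in a genotype. Two-sided P values received a Benjamini-Hochberg adjustment across those rows, and each gene was read from its highest row. Sequence copies were counted as 75-base windows in GENCODE vM21 transcripts.

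Genes named were those past the threshold, the 5 highest and 5 lowest changes, the most abundant of each complex, isoform groups, complex II, cytochromes, and fixed regulators. Others were named after their values were seen (Ndufs1, Yy1, Gabpb1, Gabpb2, Esrrb, Cs and the mtDNA-encoded genes). Members and lists were chosen with earlier results of these data known. Alternatives were other pseudocounts, filters, tests, row choices and scalings.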

Additional observations from a re-analysis of the deposited data

How the results depend on the processing

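The direction of the set held under each alternative that was run, while the number of genes past the threshold did not. With 6 OXPHOS genes at a limma adjusted P value under 0.05, the count was 1 without a filter on low values, 13 of 88 with a mean above 5 RPKM, 2 without the mean-variance trend, 1 with each gene centred on the median log2 ratio, and 1 with every CV raised by 0.005, the largest rounding error of the deposited values. It was 0 by an unequal-variance test. At an unadjusted P value under 0.05 that test gave 62 OXPHOS genes higher in KO (13.7% of all genes were) and 1 lower. The count was 6 with either other pseudocount and with 1 row per gene, 7 with any row, and 5 of 84 for subunits and cytochrome c alone. Over all genes, the share called was 2.29%, 0.794% without the filter, 3.76% above 5 RPKM, 1.71% without the trend, 1.23% after centring, 1.28% with raised CVs and 0.177% by the unequal-variance test, so that the OXPHOS genes were called at about the share of all genes after centring and with raised CVs. Cycs had an adjusted P value under 0.05 in 9 of 10 settings (0.0192 to 0.138), and the other 5 genes that passed did so in 5 or 6. Centring gave a median log2 fold change of 0.21, with 87 genes above 0 against 50.6% of all genes, and turned Ndufa7 to -0.007. Scaling without the erythroid markers, added after seeing the data, gave 0.19. The causes of these differences were not tested. No paired analysis was possible because the table gives no value for each heart, and leaving out single hearts was not run for the same reason, so the 2 KO hearts with another age in the labels stayed in every value.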
